A study of Homo sapiens with 3 samples.

Results

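The genes described are the cascade of the coactivators YAP1 and TAZ, the TEAD factors they act through, and target genes headed by the matricellular CCN genes, as read in stratified cultures of an immortalized human corneal epithelial cell line (iHCE). They are *CCN1* (earlier *CYR61*), *CCN2* (earlier *CTGF*), *ANKRD1*, *AXL*, *YAP1*, *WWTR1* (which encodes TAZ), *TEAD1*, *TEAD4*, *LATS1* and *LATS2*. The 10 genes were chosen by their place in the pathway, with the wide spread of *CCN2* over these same arrays already known, so their values are a description and carry no test. Of the 10 genes 9 could be read, through 14 probe sets that name 1 gene each, out of 11963 genes and 19071 such probe sets in all. *LATS2* was not measured here, and for it only the promoter sequence is described.

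The iHCE cells carry the SV40 large T antigen and come from 1 line, so the cultures are not separate donors. They were expanded in serum-containing medium with insulin, EGF, cholera toxin, glutamine, dimethyl sulfoxide and antibiotics, seeded at passages 22 to 23 on collagen-coated filters, and lifted to the air with ascorbic acid added after a week. RNA of 3 independent culture batches, with electrical resistances of 489, 439 and 468 Ω · cm2 in cultures 1, 2 and 3, was read on Affymetrix human arrays of 22283 probe sets, with a single array for each culture. All 3 belong to 1 group, there is no reference group among them, and the spread given is the SD over these cultures, which holds culture and array variation together.

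When cells are crowded or rounded up, the kinases LATS1 and LATS2 phosphorylate YAP1 and TAZ, which are then held in the cytoplasm or degraded. When cells are spread, stretched or on a stiff base, YAP1 and TAZ enter the nucleus, bind TEAD factors and raise the transcription of targets such as *CCN1*, *CCN2* and *ANKRD1*. In the corneal epithelium the pathway is known for its part in proliferation, wound closure and the response to the stiffness of the substrate. Since much of this control acts on proteins, the RNA levels of *YAP1*, *WWTR1* and the *LATS* genes do not report the activity of the pathway.

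Of the 9 genes 6 were above background on all 3 arrays, against 44.8% of all genes measured. These were the targets *CCN1*, *CCN2* and *AXL*, both coactivator genes *YAP1* and *WWTR1*, and *TEAD4*. The other 3, *ANKRD1*, *TEAD1* and *LATS1*, were above background on no array. Background was set by 60 genes that belong to tissues other than cornea, and a gene counted as above it when its RMA value (log2) passed their 95th percentile on every array. That percentile lay at 7.12, 7.07 and 7.10 in cultures 1, 2 and 3. Because the cultures were read in bulk, fewer cells with a transcript and less of it per cell cannot be told apart. Probe sets differ in affinity, so a value is set against background or against the same gene in another culture, and not against another gene.

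**Figure D1:**
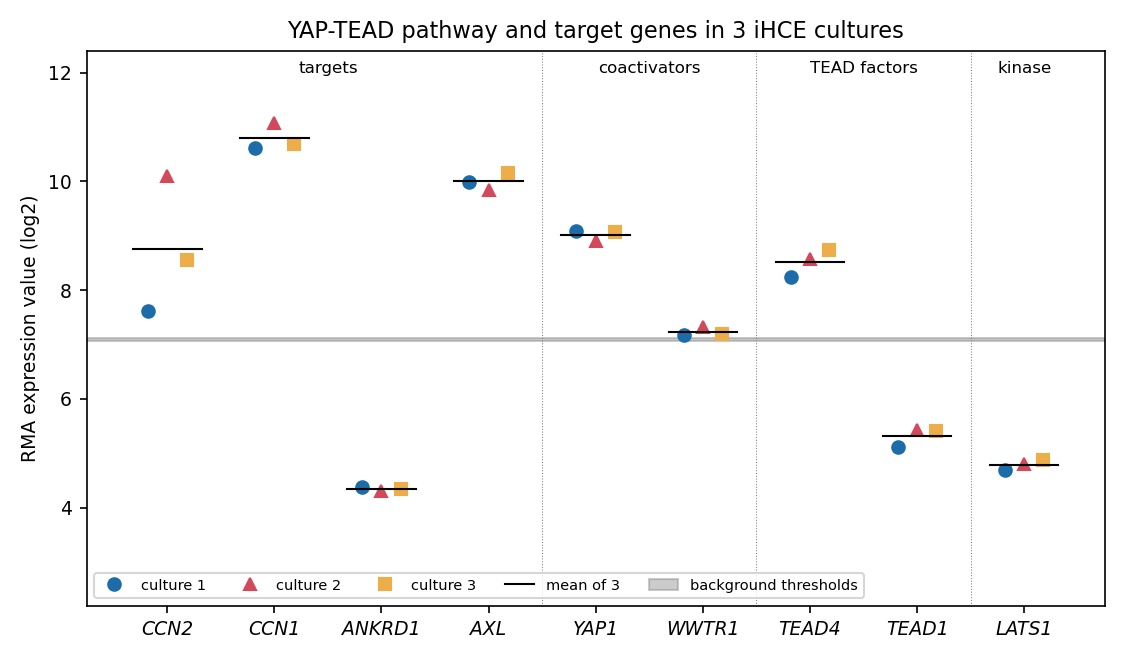
RMA expression value (log2) of the 9 genes that could be read, with 1 point per culture, a black bar at the mean of the 3 cultures and a grey band from the lowest to the highest background threshold (7.07 to 7.12). *CCN2* runs from 7.62 to 10.11, while *ANKRD1*, *TEAD1* and *LATS1* lie below the band in every culture.

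*CCN2*, which encodes a secreted matricellular protein that binds integrins and growth factors, had values of 7.62, 10.11 and 8.55 in cultures 1, 2 and 3 (8.76 ± 1.26, mean ± SD, n = 3). Culture 2 stood highest, 2.48 log2 units above culture 1 and 1.56 above culture 3, and cultures 1 and 3 were themselves 0.93 apart. On the linear scale these differences are 5.60-fold, 2.94-fold and 1.90-fold. The range of *CCN2* was first of the 5360 genes above background, of which 1.31% (70 genes) ranged over 1 log2 unit or more, and the next was *LPGAT1* with 1.75. Culture 2 exceeded both other cultures by at least 1 log2 unit in *CCN2* and in *FOS* alone of those genes (0.0373%). *CCN2* was read by 1 probe set, so no second probe set bears on the spread. Without culture 2 its range was 0.93.

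The promoters of *CCN2* and *ANKRD1* are shown because both genes are standard targets of TEAD factors and were read here at opposite ends, above background with a wide spread and at background with none. The windows run from 250 bases before to 50 after the start of the gene, from RefSeq in GRCh38.p14, at chr6:131951323-131951622 for *CCN2* and chr10:90921038-90921337 for *ANKRD1*, each read along the gene on the minus strand. Capitals mark the hexamer GGAATG, the core of the TEAD motif, searched on both strands.
CCN2: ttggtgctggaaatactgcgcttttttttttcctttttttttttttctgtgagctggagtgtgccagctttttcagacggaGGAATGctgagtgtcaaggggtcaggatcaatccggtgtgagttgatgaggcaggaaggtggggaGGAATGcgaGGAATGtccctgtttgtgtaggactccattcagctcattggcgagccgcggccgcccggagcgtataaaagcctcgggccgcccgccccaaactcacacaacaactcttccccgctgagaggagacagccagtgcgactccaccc
ANKRD1: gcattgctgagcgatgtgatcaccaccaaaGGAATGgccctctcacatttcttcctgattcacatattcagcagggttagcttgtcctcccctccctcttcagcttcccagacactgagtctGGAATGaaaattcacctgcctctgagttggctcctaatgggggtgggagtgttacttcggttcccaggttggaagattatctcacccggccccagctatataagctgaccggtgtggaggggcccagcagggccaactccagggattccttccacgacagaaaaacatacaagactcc

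In the *CCN2* window the hexamer occurred 3 times, beginning 169, 104 and 95 bases before the start, and TATAAA began 32 bases before it. In the *ANKRD1* window the hexamer occurred 2 times, 220 and 128 bases before the start. The pattern TGANTCA, a loose form of the AP-1 motif with any base at N, began 195 bases before the start, as TGATTCA. Of 35116 promoter windows of this length, 14% held the hexamer at least once on either strand and 0.13% held it 3 times or more. Windows were at hand for 7 of the 10 genes, 10 windows in all, and *CCN1*, *TEAD1* and *TEAD4* had none and were not searched. The hexamer was in a window of 5 of the 7 genes, namely *CCN2*, *ANKRD1*, *AXL*, *YAP1* and *LATS2*, and for *AXL* in only 1 of its windows. The 14% counts windows, so it is not a share of genes. The pattern TGANTCA was in 7.71% of all windows, TATAAA in 11.5% and the CArG box of serum response factor in 1.29%. The CArG box was in none of the 10 windows searched for these genes. These matches are letters in a window and were not linked to the measured levels.

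*ANKRD1*, which encodes a nuclear ankyrin repeat protein abundant in heart muscle, had values of 4.39, 4.31 and 4.35 in cultures 1, 2 and 3 (4.35 ± 0.04, SD, n = 3). All 3 lay below the thresholds, in culture 2 as in the others, and values in this range carry no order.

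*CCN1*, a close relative of *CCN2*, had values of 10.60, 11.07 and 10.68 (10.79 ± 0.25, SD, n = 3). Its protein is likewise secreted and binds integrins. Culture 2 was again the highest, 0.47 log2 units above culture 1 and 0.39 above culture 3, while cultures 1 and 3 differed by 0.08. A second probe set of the gene read 9.12, 9.84 and 9.26 and placed the cultures in the same order. Culture 2 stood above the mean of the others by 0.43 in the first probe set and 0.65 in the second, against 2.02 for *CCN2*. The range of *CCN1* was 1062nd of the 5360 genes.

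*AXL*, a receptor tyrosine kinase, had values of 9.99, 9.84 and 10.16 (10.00 ± 0.16, SD, n = 3). Here culture 2 was the lowest, and culture 3 the highest, with a range of 0.33. The second probe set of *AXL* read 6.59, 6.59 and 6.70, above background on no array.

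**Figure D2:**
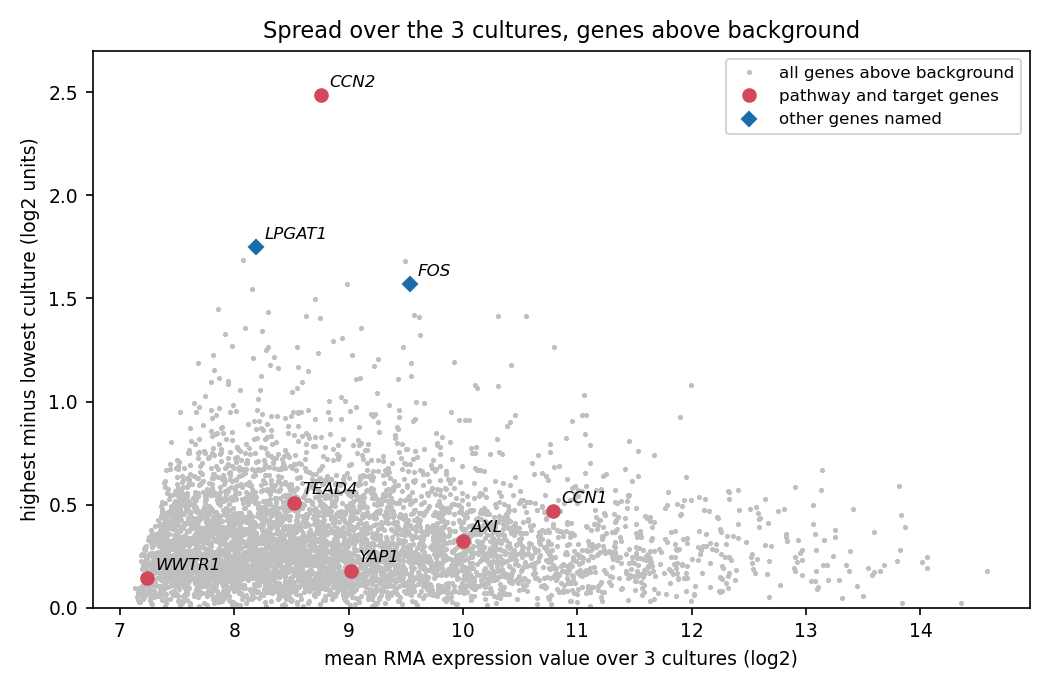
Highest minus lowest culture (log2 units) against the mean value (log2) for the 5360 genes above background (grey), the 6 pathway and target genes among them (red) and *FOS* and *LPGAT1* (blue). *CCN2* lies above all other genes at 2.48, and the other 5 pathway and target genes lie between 0.15 and 0.51.

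*YAP1* had values of 9.09, 8.91 and 9.06 in cultures 1, 2 and 3 (9.02 ± 0.10, SD, n = 3). Culture 2, where *CCN2* was highest, had the lowest *YAP1* value, by 0.18 and 0.16 log2 units. *WWTR1* had values of 7.18, 7.32 and 7.20 (7.23 ± 0.08, SD, n = 3), barely over the thresholds, and its call was lost under 4 of the 10 other settings tried. The other probe sets of *WWTR1* were not above background on any array. One read 6.66, 6.13 and 6.25 and the other 5.27, 5.69 and 5.66. Values in this range carry no order, so neither bears on the order of the first. The coactivator genes ranged over 0.18 and 0.15 log2 units, which placed them 3919th and 4379th of the 5360 genes.

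*TEAD4*, which encodes one of the DNA-binding partners of YAP1 and TAZ, had values of 8.24, 8.58 and 8.75 (8.52 ± 0.26, SD, n = 3). Culture 1 was lowest and culture 3 highest. The other probe set of *TEAD4* read 6.91, 7.29 and 7.48, the same order, and was above background in cultures 2 and 3 only. The range of *TEAD4* was 0.51 log2 units in the first and 0.56 in the second probe set. *TEAD1* had values of 5.12, 5.43 and 5.42 (5.32 ± 0.18, SD, n = 3) and the kinase gene *LATS1* 4.69, 4.81 and 4.88 (4.79 ± 0.10, SD, n = 3). Both lay below every threshold, and each was read by 1 probe set, so a probe set of low affinity and a transcript of low level cannot be told apart.

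**Figure D3:**
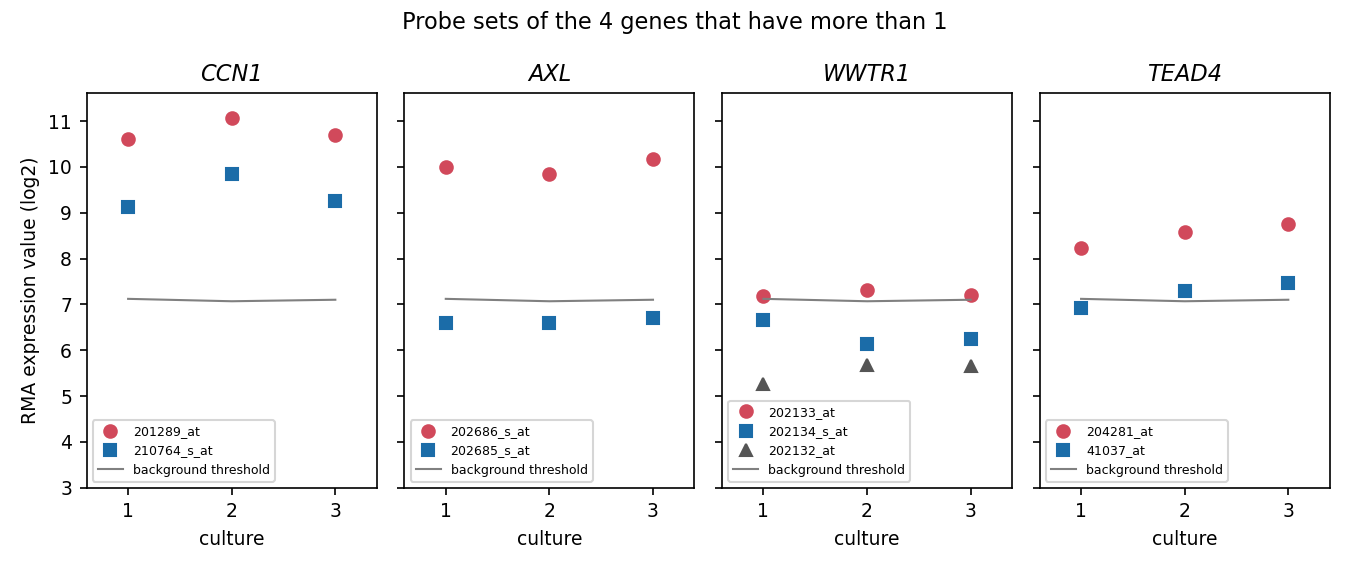
RMA expression value (log2) by culture for each probe set of *CCN1*, *AXL*, *WWTR1* and *TEAD4*, with the background threshold of each array as a grey line. The probe sets of *CCN1* (10.60, 11.07 and 10.68, and 9.12, 9.84 and 9.26) and those of *TEAD4* place the cultures in the same order. For *WWTR1* only the probe set with 7.18, 7.32 and 7.20 lies above the line.

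Among the 6 genes above background, *CCN2* and *TEAD4* ranged over 0.5 log2 units or more, against 16.8% of all genes above background, and the other 4 did not. Culture 2 was the highest in 3 of the 6 (*CCN1*, *CCN2* and *WWTR1*), against 28% of all genes above background. These 3 had the order culture 1, 3 and 2 from low to high, as 18.8% of all genes above background did. That order is the reverse of the electrical resistance, 489, 468 and 439 Ω · cm2. The relation was not tested. The median range of the 6 genes was 0.40, against 0.28 for all genes above background.

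The array of culture 1 stood somewhat apart from the others, and this bears on differences that rest on culture 1. Among the 5360 genes, gaps of at least 1 log2 unit were found for 52 genes between cultures 1 and 2 and for 43 between cultures 1 and 3. Cultures 2 and 3 had such a gap in 4 genes, *CCN2* among them. The poly-A control transcripts were lower in culture 1 at 24 of 24 probe sets, and their median was 5.44 in culture 1, 6.82 in culture 2 and 6.67 in culture 3. These medians all lay below the background thresholds set for genes. On every array the 3′ control probe set read above the 5′ one, and the size of this excess is a sign of RNA integrity. The excess was 3.0, 3.3 and 3.0 log2 units for *ACTB* and 1.64, 1.34 and 1.28 for *GAPDH* in cultures 1, 2 and 3. Whether it lowered the value of any gene called at background was not tested. All 6 markers of simple epithelium, such as *KRT18* and *EPCAM*, were above background, with a summed linear level of 16490.1, 13279.0 and 14494.0 in cultures 1, 2 and 3. *KRT7* among them read 11.08, 9.90 and 10.27, lowest in culture 2. None of 8 markers of corneal epithelium was above background, *KRT3*, *KRT12* and *PAX6* included. Of 22 measured markers of fibroblasts and keratocytes, melanocytes, immune cells and endothelium none was above background on all arrays. The summed linear level of the fibroblast and keratocyte markers was 408.1, 356.0 and 334.2 and their median value (log2) 5.87, 5.96 and 5.70 in cultures 1, 2 and 3, all values that lie in the background range and carry no order. The part of the control transcripts, of RNA integrity and of these markers in the spread of *CCN2* was not tested.

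No gene above background had deviations close in size to those of *CCN2*. Likeness was measured as the root mean square difference between the deviations of 2 genes from their own means over the 3 cultures. Deviations were not scaled, so *CCN2*, with by far the widest range, could have no close match. A gene of like shape and smaller range, such as *CCN1*, ranks low by this measure. The closest genes were *LPGAT1* (0.43), *THOC2* (0.50), *BST2* (0.52), *PDIA3* (0.54) and *ATM* (0.55). *LPGAT1* read 7.20, 8.95 and 8.42 and *THOC2*, of the mRNA export complex, 7.46, 8.72 and 7.77 in cultures 1, 2 and 3. *BST2*, an interferon-induced antiviral gene, read 9.76, 11.17 and 10.72. In all 5 culture 2 was highest and culture 1 lowest, as in *CCN2*, but the step from cultures 1 and 3 to culture 2 was smaller. *FOS*, an immediate early gene, came 22nd (0.65) and *CCN1* 294th (0.83). *FOS* read 9.32, 10.42 and 8.86, so that culture 3 and not culture 1 was lowest. For *CCN1*, with a range of 0.47, many genes lay close, led by *SKIC2*, *HAUS2*, *OAS3*, *CHRNB2* and *CLK2* with differences of 0.0052 to 0.011.

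**Figure D4:**
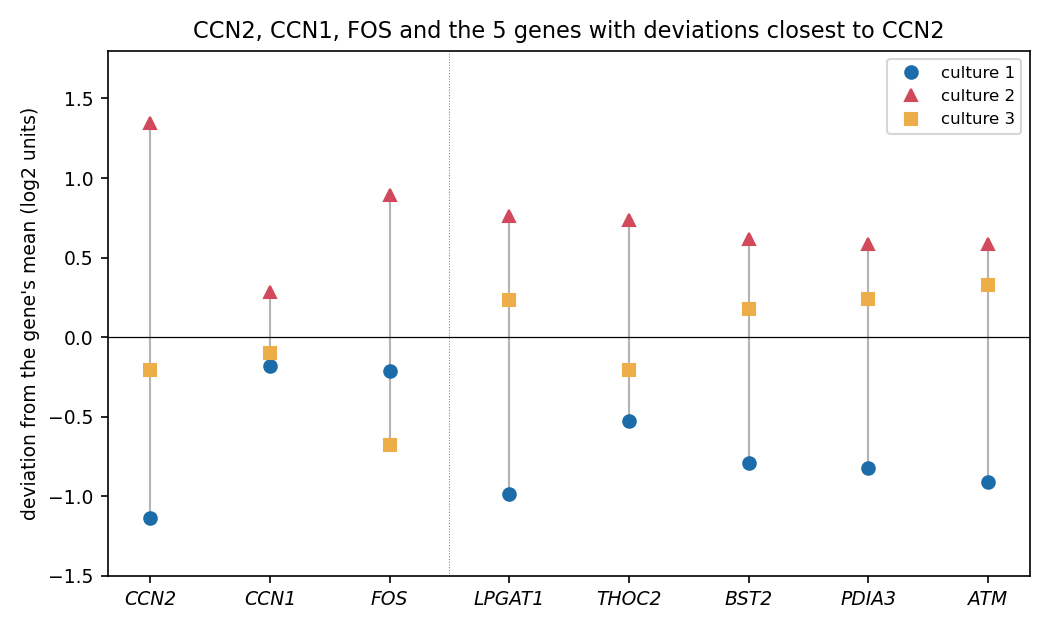
Deviation of each culture from the gene's mean over the 3 cultures (log2 units) for *CCN2*, *CCN1*, *FOS* and the 5 genes with deviations closest to those of *CCN2*. Culture 2 is the highest point in all 8, with deviations of 1.35 in *CCN2*, 0.29 in *CCN1* and 0.89 in *FOS*.

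The cascade upstream of YAP1 and TAZ was mostly above background, with 13 of 19 genes measured out of 24 listed (68.4%), against 44.8% of all genes. *STK3*, the kinase MST2 that activates the LATS kinases, had values of 8.86, 9.27 and 9.32, and its adaptor *SAV1* 7.66, 8.10 and 8.07. The related kinase gene *STK4* (5.24 ± 0.19, SD, n = 3) was above background on no array. *MOB1A*, a cofactor of the LATS kinases, was at 10.20 ± 0.06, *NF2*, which encodes merlin, at 9.02 ± 0.18, and *WWC1*, which encodes the scaffold KIBRA, at 10.56 ± 0.10. The atypical cadherin gene *FAT1* was at 9.34 ± 0.10. *STK38*, a relative of the LATS kinases, read 8.88, 9.29 and 9.20. Of the 13 genes 1 ranged over 0.5 log2 units or more, against 16.8% of all genes above background. This was the polarity gene *SCRIB* with 7.49, 8.03 and 7.85. *PTPN14*, *AMOT*, *STK4*, *LIMD1* and *TAOK2* were above background on no array, and *RASSF1*, with 6.73, 7.18 and 7.29, on 2 arrays.

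Of the other factors that bind DNA or TEAD proteins, 1 of 6 measured genes was above background (16.7%), against 44.8% of all genes. This was *VGLL4*, a repressor of TEAD factors, with 7.65, 7.86 and 7.60. *TEAD3* read 7.03, 7.17 and 6.95 and crossed the threshold in culture 2 only. *VGLL1* (5.71 ± 0.03), *VGLL3* (4.02 ± 0.06), *TP73* (5.40 ± 0.12) and *RUNX2* (5.93 ± 0.10) were above background on no array (SD, n = 3 for each).

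Of the other CCN genes 1 of 4 was above background (25%), against 44.8% of all genes. *CCN3* read 7.80, 7.70 and 7.25, lowest in culture 3, and its second probe set (6.55 ± 0.19, SD, n = 3) was above background on no array. *CCN4* (5.36 ± 0.20), *CCN5* (6.07 ± 0.07) and *CCN6* (4.46 ± 0.16) were above background on no array. The high value in culture 2 was seen in *CCN1* and *CCN2* and not in *CCN3*, and could not be read in the rest.

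Of 17 other measured target genes, listed from general knowledge of YAP1 and TAZ in other cells, 8 were above background, a share of 47.1% and near that of all genes. *MYOF*, of membrane repair, read 10.52, 10.26 and 10.31, and *AMOTL2*, a feedback inhibitor that binds YAP1, 9.43, 9.62 and 9.94. The tissue factor gene *F3* read 9.68, 9.03 and 9.74 and *IGFBP3*, a carrier of insulin-like growth factors, 10.10, 9.61 and 9.74. In both culture 2 was the lowest. *GADD45A*, also induced by DNA damage, read 9.11, 9.24 and 9.91 and was highest in culture 3. Culture 2 was highest in 3 of the 8, against 28% of all genes above background. These were *CRIM1*, *ARHGEF17* and *BIRC5*, none of which ranged over 0.5 log2 units, and *ARHGEF17* over only 0.03. *NT5E*, the ecto-enzyme CD73, read 6.32, 7.52 and 8.13 and was above background in cultures 2 and 3 only. *THBS1* (7.06 ± 0.23, SD, n = 3) crossed the threshold on 1 array and *DOCK5* (4.75 ± 0.39), *TGFB2* (5.15 ± 0.15) and *RBMS3* (5.34 ± 0.16) on none.

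**Figure D5:**
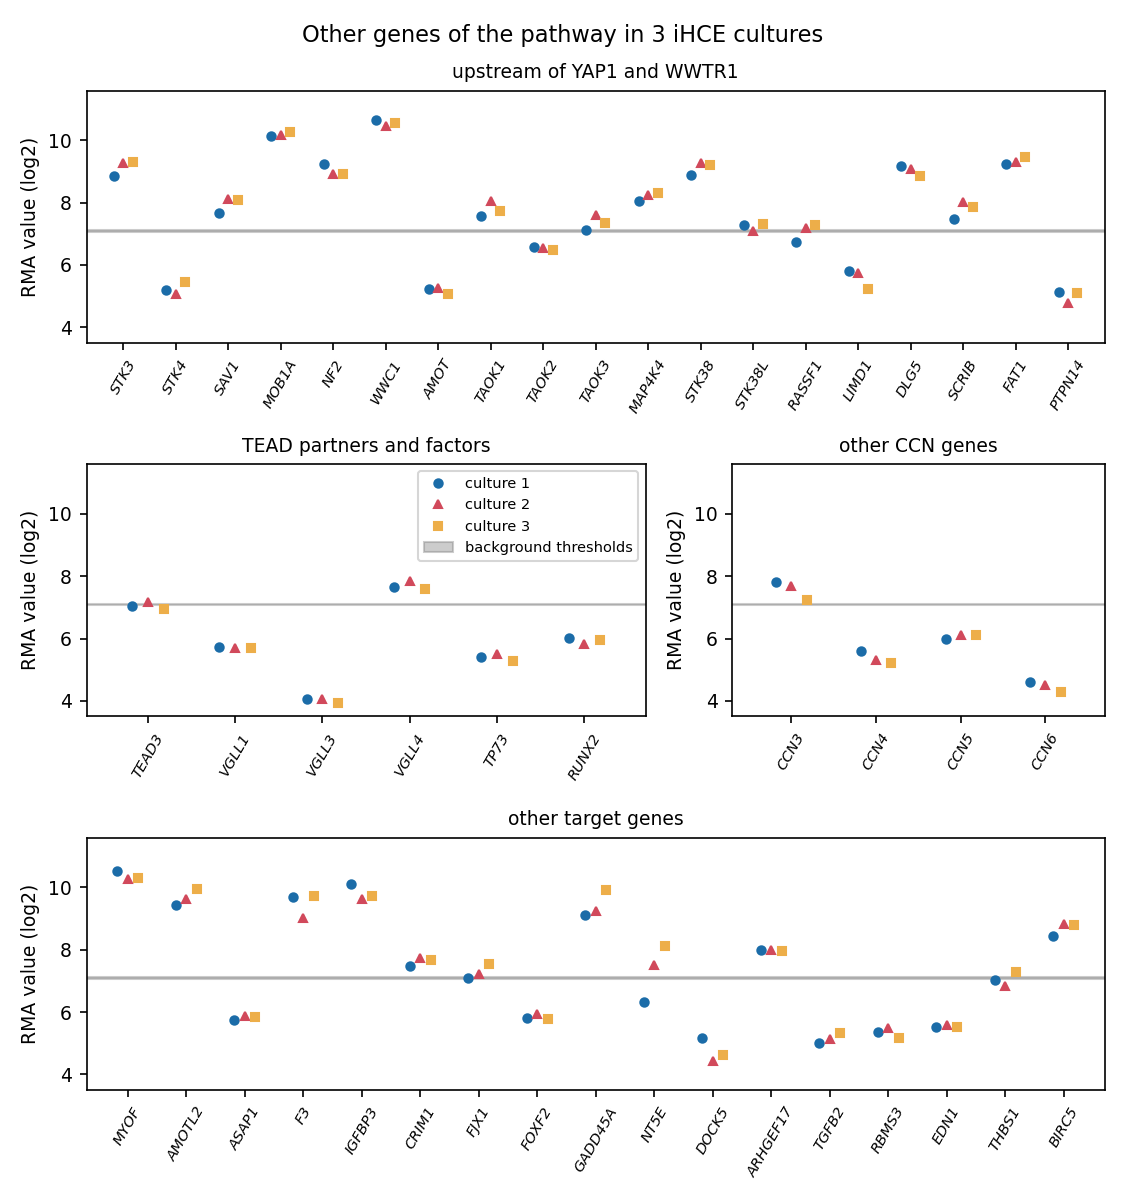
RMA expression value (log2) in each culture for the other genes of the pathway, with genes upstream of the coactivators at the top, TEAD partners and other CCN genes in the middle and other target genes at the bottom, and a grey band at the background thresholds (7.07 to 7.12). Of these 46 genes 23 lie above the band in every culture (50%), against 44.8% of all genes. None of the 23 ranges over 1 log2 unit, against 1.31% of all genes above background. *NT5E* ranges over 1.81 log2 units but is not among the 23, since it lies below the band in culture 1.

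*CCN1* and *CCN2* are also known as targets of serum response factor (SRF) and its actin-sensing cofactors. Of 19 measured genes of SRF, its cofactors and its targets, 13 were above background (68.4%), against 44.8% of all genes. Culture 2 was highest in 4 of the 13, *SRF*, *MRTFB*, *FOS* and *IER2*, a share near the 28% of all genes above background. *SRF* read 7.19, 7.94 and 7.92 and *IER2* 12.45, 12.87 and 12.44. The immediate early genes *EGR1*, with 12.01, 11.76 and 11.53, and *JUNB*, with 8.76, 8.05 and 7.80, were highest in culture 1. The actin-linked gene *FHL2* read 10.91, 10.26 and 10.91 and *TPM1* 10.65, 10.13 and 10.17, both lowest in culture 2. The smooth muscle actin gene *ACTA2* read 8.85, 8.65 and 8.49, above background on all arrays. The smooth muscle genes *TAGLN* (4.83 ± 0.27), *CNN1* (5.27 ± 0.10) and *MYL9* (6.25 ± 0.28) were above background on no array (SD, n = 3 for each).

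Of 13 genes of CCN receptors and of the AXL family, 8 were above background (61.5%), against 44.8% of all genes. The median range of the 8 was 0.19 log2 units, against 0.28 for all genes above background. The integrin genes *ITGB1* (12.25 ± 0.20), *ITGB5* (10.19 ± 0.13), *ITGAV* (9.23 ± 0.04) and *ITGA6* (8.82 ± 0.10) were among them (SD, n = 3 for each), and the β3 gene *ITGB3* was not (5.92 ± 0.28). *SDC4*, a heparan sulfate proteoglycan, read 11.13, 10.62 and 10.90, a range of 0.51 log2 units. *GAS6*, the ligand of AXL, was at 9.30 ± 0.09 and its relative *PROS1* at 5.42 ± 0.35, below the thresholds. Of the other receptors of the AXL family, *TYRO3* was above background (7.45 ± 0.06) and *MERTK* was not (5.38 ± 0.15).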

How the data were processed

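RNA of 3 iHCE cultures was measured on 1 Affymetrix array each. The authors computed the values by RMA in R 2.8.0, per the submitters' processing notes, and deposited them as log2 values for 22283 probe sets. RMA equalizes the arrays and compresses low values. The study's methods describe RMA over the culture and tissue arrays together, on re-annotated probes. The values used here carry the original probe set names, so whether they come from that joint run is not settled. Tissue arrays were not analysed here. No genome build is given for the probe sets, so the only coordinates printed are those of RefSeq promoter windows.

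Probe sets were named through the platform annotation, with symbols updated by Entrez number through RefSeq (GRCh38.p14). Of them 19071 had 1 symbol, 1043 several and 2169 none listed. The probe set of highest mean stood for its gene (4310 genes had several). The panel held 71 genes, 60 of them measured. Promoters came from the same RefSeq build.

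No groups exist to compare, so no test was run as a result. Besides the 10 genes, the rule named genes of the 6 pathway, target, serum response factor and receptor lists (not the cell type markers) above background with a range of 0.5 or more, the 3 highest and 3 lowest of each list, any gene that was the only one of its family measured, and the 5 genes most like *CCN2* and *CCN1*. *LIMD1*, *TAOK2*, *RASSF1*, *SAV1*, *NF2*, *STK38*, *STK3*, *THBS1*, *NT5E*, *CRIM1*, *ARHGEF17*, *BIRC5*, *MRTFB*, *TYRO3*, *ITGA6*, *ITGAV*, *GAS6*, *ACTA2* and the marker *KRT7* fall outside this rule and were chosen after their values were seen. The members and lists were chosen with earlier results of these data known. Alternatives were 3 other thresholds, the mean over probe sets, leaving out _x_at and _s_at probe sets, quantile normalization, a one-sided limma test (version 3.58.1, adjusted p under 0.05) and leaving out each culture. The steps were tested on simulated data. Python 3.11.15 and pandas 2.3.3 were used. Arrays give no depth, and their number limits the precision.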

Additional observations from a re-analysis of the deposited data

How the results depend on the processing

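The number of these genes above background was 6 of 9 and stayed between 4 and 6 under all 10 alternatives. Without _x_at and _s_at probe sets 8 of them could be read. The share of all genes was 44.8%, and 31.5% to 48.8% under the alternatives other than the limma test. *WWTR1* was not above background with the highest panel value, the panel median plus 3 scaled MADs, the mean over probe sets or the limma test, *CCN2* was not with the median plus 3 scaled MADs, owing to culture 1, and *AXL* could not be read without _x_at and _s_at probe sets. *CCN1*, *YAP1* and *TEAD4* kept their call under each. The other pathway genes above background numbered 23 of 46, against 44.8% of all genes. They numbered 14 of 46 with the median plus 3 scaled MADs, where the share of all genes was 31.5%. Without _x_at and _s_at probe sets they numbered 14 of the 31 then measured, against 38.1% of all genes, and fewer genes were tested. Leaving out 1 culture gave 22 to 26, where the share of all genes was 44.9% to 46.7%. The range of *CCN2* was 2.48, 2.44 after quantile normalization, and 0.93 (without culture 2) to 2.48 with 1 culture left out. That of *CCN1* was 0.47, 0.59 with the mean over probe sets, and 0.0802 (without culture 2) to 0.47 with 1 culture left out. Of 80 levels under an alternative 4 moved by 1 SD or more, all with the mean over probe sets. These were *CCN1*, *AXL*, *WWTR1* and *TEAD4*, the genes with more than 1 probe set, and the other genes could not move there. A level does not depend on the threshold, so the other thresholds could move none. Leaving out 1 of 3 cultures shifts their mean by less than 1 SD whatever the values, so it could move none either. The count of 80 includes both kinds of level. No paired analysis was possible because there is 1 group. With 1 array per culture, culture and array cannot be told apart, and values near background are compressed.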
